A study of Rattus norvegicus with 14 samples.

Results

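Cyp2c11, Cyp2c12, Cyp2c13 and Cyp3a2 are cytochrome P450 genes of rat liver whose expression is classically tied to the pattern of growth hormone release. They were chosen on their signals on these same 14 arrays, which earlier results had shown to vary in opposite directions between arrays of one diet, and every probe set whose platform symbol is one of the 4 was taken. They are 4 of the 4741 gene symbols on the array and have 8 of the 8740 probe sets other than controls, with 3 for Cyp2c11, 2 for Cyp2c12, 2 for Cyp2c13 and 1 for Cyp3a2. The study measured RNA of the left lateral lobe of rat liver on 14 Affymetrix arrays, 4 from rats on a magnesium-deficient diet (arrays 11 to 14), 5 on a magnesium-supplemented diet (arrays 1 to 5) and 5 on a standard diet (arrays 6 to 10). Each target was made from approximately 5 µg of total RNA. The labels name no strain, sex, age, magnesium content or length of feeding, and leave it unsaid whether each array stands for its own animal. The p-values therefore cover the spread between these arrays, which may be technical.

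In the rat, the pituitary of males releases growth hormone in separated pulses and that of females releases it almost continuously. Pulses activate the transcription factor STAT5b in hepatocytes and maintain the male-predominant Cyp2c11, whereas near-continuous hormone maintains the female-predominant Cyp2c12 and lowers Cyp2c11 and Cyp3a2. Cyp2c13 is also male-predominant. The encoded enzymes hydroxylate steroid hormones and many drugs, and Cyp2c12 also acts on sulfated steroids.

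The liver label was checked first. All 8 hepatocyte marker genes on the array (among them Alb, Ttr and Apoa1) passed the filter on dim signals, and their summed signal lay between 51490.4 and 53339 units on the deficient diet, between 46897 and 54800.1 units on the supplemented diet and between 50043.6 and 53977 units on the standard diet. Array medians ran from 18.1 to 34.6 units before normalisation, and supplemented array 5 stood apart, with a mean rank correlation to the others of 0.913 where the remaining arrays had 0.940 to 0.951.

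The RefSeq promoters of the 4 genes are shown because the 4 genes move together or against each other and because Cyp2c12 and Cyp2c13, which moved in opposite directions, are next to each other among the protein-coding genes of rat chromosome 1. Each is the 250 bases before the transcript start in RefSeq's table of assembly GRCr8, at chr1:248677035-248677284 for Cyp2c12 (minus strand), chr1:248787189-248787438 for Cyp2c13 (minus strand), chr1:246174966-246175215 for Cyp2c11 (plus strand) and chr12:14343858-14344107 for Cyp3a2 (minus strand). Capitals mark the motif matches described below.
Cyp2c12: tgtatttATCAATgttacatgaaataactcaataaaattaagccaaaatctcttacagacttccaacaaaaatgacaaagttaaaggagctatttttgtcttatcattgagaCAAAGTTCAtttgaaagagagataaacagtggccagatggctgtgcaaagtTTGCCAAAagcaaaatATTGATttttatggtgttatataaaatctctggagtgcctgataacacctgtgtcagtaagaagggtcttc
Cyp2c13: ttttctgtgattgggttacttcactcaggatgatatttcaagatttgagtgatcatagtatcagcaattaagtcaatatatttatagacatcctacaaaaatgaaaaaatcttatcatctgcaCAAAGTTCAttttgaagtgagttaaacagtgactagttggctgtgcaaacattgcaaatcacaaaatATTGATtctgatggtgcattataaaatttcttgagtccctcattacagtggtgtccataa
Cyp2c11: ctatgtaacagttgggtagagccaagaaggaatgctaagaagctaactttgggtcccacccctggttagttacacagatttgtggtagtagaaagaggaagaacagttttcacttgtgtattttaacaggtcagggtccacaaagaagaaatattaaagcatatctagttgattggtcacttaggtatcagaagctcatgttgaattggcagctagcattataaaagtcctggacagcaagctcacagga
Cyp3a2: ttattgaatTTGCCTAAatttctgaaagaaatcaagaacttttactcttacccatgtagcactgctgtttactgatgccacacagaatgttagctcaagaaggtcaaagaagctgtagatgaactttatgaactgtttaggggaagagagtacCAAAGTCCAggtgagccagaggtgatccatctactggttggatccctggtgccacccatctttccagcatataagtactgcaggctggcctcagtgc

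A motif search covered both strands, with positions counted back from the transcript start. The core ATTGAT of HNF6, a liver factor, occurred in 2 of the 4 promoters, against 7.1% of all 33469 rat promoters of the same length. It lay at positions -71 to -66 of Cyp2c12 and -60 to -55 of Cyp2c13, and Cyp2c12 had a second, reversed match at -243 to -238. The HNF4-type letters CAAAGTNCA, which 1.06% of promoters hold, occurred in 3 of 4, at -138 to -130 of Cyp2c12, -127 to -119 of Cyp2c13 and -97 to -89 of Cyp3a2. The C/EBP-type letters TTGCNNAA (9.22% of promoters) were found at -87 to -80 of Cyp2c12 and -241 to -234 of Cyp3a2, and the STAT5-type letters TTCNNNGAA (7.67% of promoters) in 0 of 4 windows. No match overlapped another. The Cyp2c12 and Cyp2c13 windows were 75.9% identical over 216 aligned bases. Matches that these 2 windows share are therefore not separate observations, and the counts out of 4 cannot be weighed against the rates of all promoters. The neighbours thus share the HNF6-type and HNF4-type letters in the same order while their signals ran opposite to each other. Whether any of these matches is bound was not measured.

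Signals below are normalised probe set signals in arbitrary units. Levels of different probe sets are not comparable with each other, since each has its own probes. For each gene the probe set of highest mean is given first.

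Cyp2c12 (J03786_s_at), the female-predominant member, had 489, 37.7, 467 and 27.4 units on deficient arrays 11 to 14. It had 34.2, 153, 1291, 706 and 54.5 units on supplemented arrays 1 to 5. It had 54.6, 16.6, 27.2, 545 and 33.8 units on standard arrays 6 to 10. Every diet therefore held both arrays with a low and arrays with a high Cyp2c12 signal, and the diets overlapped. The 5 highest signals, 467 units and above, were those of deficient arrays 11 and 13, supplemented arrays 3 and 4 and standard array 9, and the next one down was supplemented array 2 at 153 units. The highest array exceeded the lowest 17.9-fold on the deficient diet, 37.7-fold on the supplemented diet and 32.9-fold on the standard diet. The other Cyp2c12 probe set (M33550cds_s_at) gave the same 5 arrays at the top, at 462, 530.2, 1604, 954 and 690.1 units in that order, and 165 units on supplemented array 2. The remaining 8 arrays lay between 18.7 and 57.1 units with it.

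Cyp2c11 (J02657_s_at), the main male P450, had 1725, 2807, 2048 and 3376 units on the deficient arrays. It had 3993, 3389, 365, 504 and 5352 units on the supplemented arrays. It had 4018, 4223, 4160.0, 857 and 4141 units on the standard arrays. Within each diet the lowest signals belonged to the arrays named above for Cyp2c12: 11 and 13, 3 and 4, and 9. The highest array exceeded the lowest 1.96-fold on the deficient diet, 14.6-fold on the supplemented diet and 4.93-fold on the standard diet, where array 9, at 857 units, had the next array above it at 4018 units. A second probe set (M18363cds_s_at) ranged from 290.4 to 994 units on the deficient, from 108 to 2633 units on the supplemented and from 189 to 1867 units on the standard diet. The third (X79081mRNA_f_at), which the platform marks by its suffix as one of a sequence family, was dimmer, from 7.33 to 475 units over all arrays, and on the standard diet its lowest arrays were 10 and 9, at 49.9 and 50.3 units.

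Cyp2c13 (M82855cds_s_at), a male-predominant relative, had 992, 2633, 929 and 2957 units on the deficient arrays. It had 2583, 3701, 290.4, 44.6 and 3652 units on the supplemented arrays. It had 3064, 3938, 3246, 487 and 2271 units on the standard arrays. Arrays 11, 13, 3, 4 and 9 were again the low ones, and supplemented array 4 was the lowest of all, 82.9-fold below the highest supplemented array. On the other probe set (J02861mRNA_s_at) array 4 was also the lowest, at 37.0 units, against 86.0 units on array 3 and 373 units on standard array 9.

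Cyp3a2 (M13646_s_at), which hydroxylates steroids and drugs, had 285, 942, 548 and 1285 units on the deficient arrays. It had 746, 1348, 105, 1.27 and 1316 units on the supplemented arrays. It had 681, 1821, 1852, 73.5 and 1164 units on the standard arrays. The value of array 4 lay under the floor of 3.93 units to which dim signals were raised for the fits, so the highest supplemented array exceeded it at least 343-fold on the floored scale. A further probe set that the platform assigns both to Cyp3a2 and to the neighbouring Cyp3a23-3a1 was not counted as a member. It had 94.1, 139, 74.4 and 1119 units on the deficient arrays, so array 12 lay with arrays 11 and 13. On the supplemented diet its lowest arrays were 3 and 4, at 84.1 and 138 units. Its lowest standard array was 10, at 115 units, with array 9 next at 189 units.

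**Figure D1:**
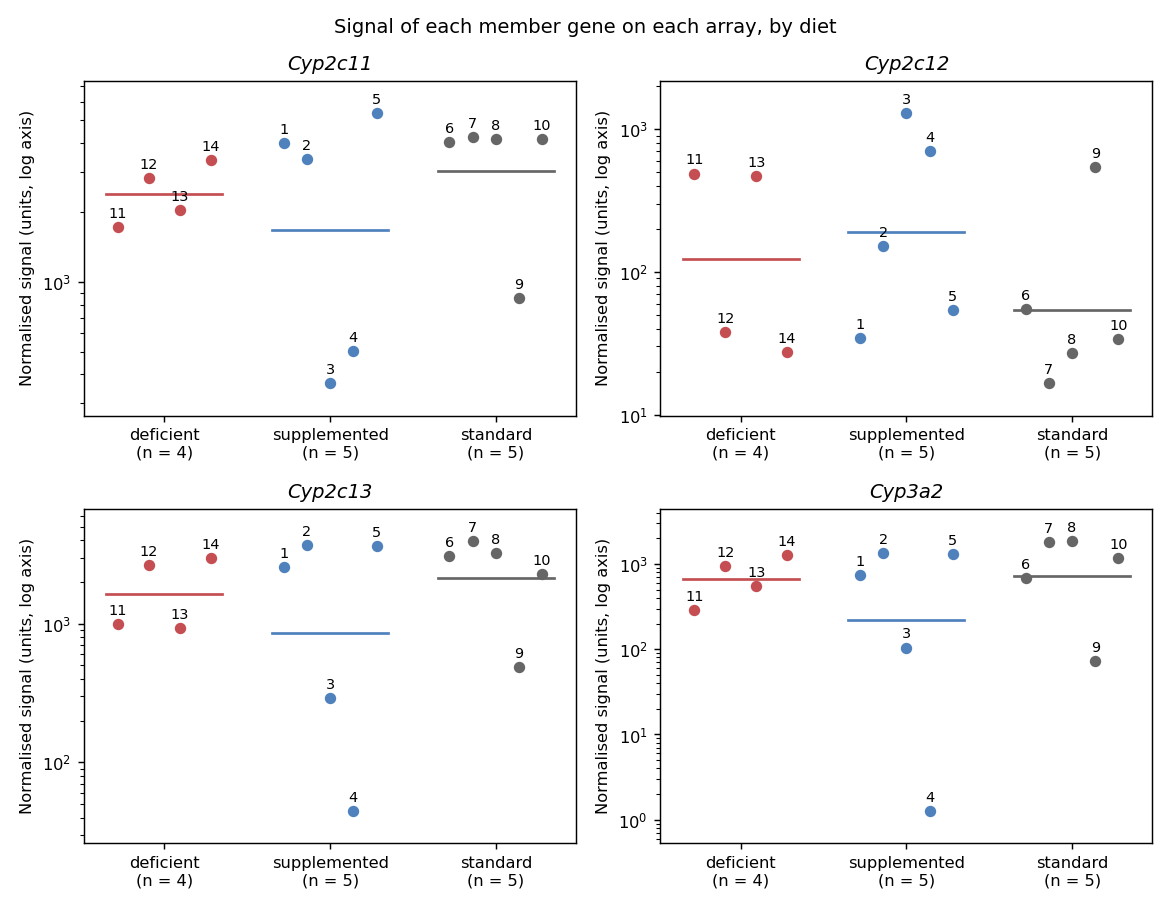
Normalised signal (log axis, units) of the highest-mean probe set of each member on every array, by diet; numbers are array numbers and horizontal lines are means of the log2 values with dim signals raised to the floor. Arrays 11, 13, 3, 4 and 9 are the highest of their diets for Cyp2c12 and the lowest for the other 3 genes.

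These are the values by which the genes were chosen, so their spread is described and not tested. The standard deviation (SD) of the log2 signal within diets was 2.51 for Cyp3a2, the largest of 5133 probe sets past the filter, although it includes the floored array 4. It was 2.43 and 2.16 for the 2 Cyp2c12 probe sets (ranks 2 and 8), 1.98 and 1.91 for Cyp2c13 (ranks 11 and 14) and 1.72, 1.61 and 1.28 for Cyp2c11 (ranks 23, 27 and 72). The median over the 5133 probe sets was 0.39 and their 95th percentile 0.98.

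The opposite variation was summarised over the 14 arrays after each diet's mean had been subtracted. Cyp2c11 and Cyp2c12 had a Pearson correlation of -0.87 (Spearman's rho -0.85), Cyp2c13 and Cyp2c12 of -0.79 (rho -0.79) and Cyp3a2 and Cyp2c12 of -0.75 (rho -0.75). The male-predominant genes ran together, at 0.91 for Cyp2c11 with Cyp2c13, 0.86 for Cyp2c11 with Cyp3a2 and 0.97 for Cyp2c13 with Cyp3a2. Probe sets of one gene correlated at 0.98 for Cyp2c12, 0.97 for Cyp2c13 and between 0.78 and 0.97 for Cyp2c11. The Cyp2c genes are close relatives and their probe sets may share transcripts, so probe sets of different Cyp2c genes are not fully separate measurements. The 14 points of a correlation share arrays and the normalisation, so the values are descriptions with no p.

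A single number per array, called the member contrast here, was formed as the mean standardised deviation of Cyp2c11, Cyp2c13 and Cyp3a2 minus that of Cyp2c12. It was -1.44, 1.13, -1.22 and 1.53 on deficient arrays 11 to 14. It was 2.16, 1.23, -2.46, -3.09 and 2.16 on supplemented arrays 1 to 5, and 0.19, 1.35, 0.94, -3.07 and 0.59 on standard arrays 6 to 10. The contrast thus left a gap between -1.22 (array 13) and 0.19 (array 6), with 9 arrays above it. Within those 9 arrays the deviations correlated at 0.86 for Cyp2c11 with Cyp2c13 and at 0.89 for Cyp2c13 with Cyp3a2. Cyp2c12 correlated with Cyp2c11 at -0.30, with Cyp2c13 at -0.24 and with Cyp3a2 at -0.24. These deviations were still taken from diet means that include the arrays below the gap, so they hold offsets between diets. The values therefore cannot show whether the genes ran together or apart within those 9 arrays.

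**Figure D2:**
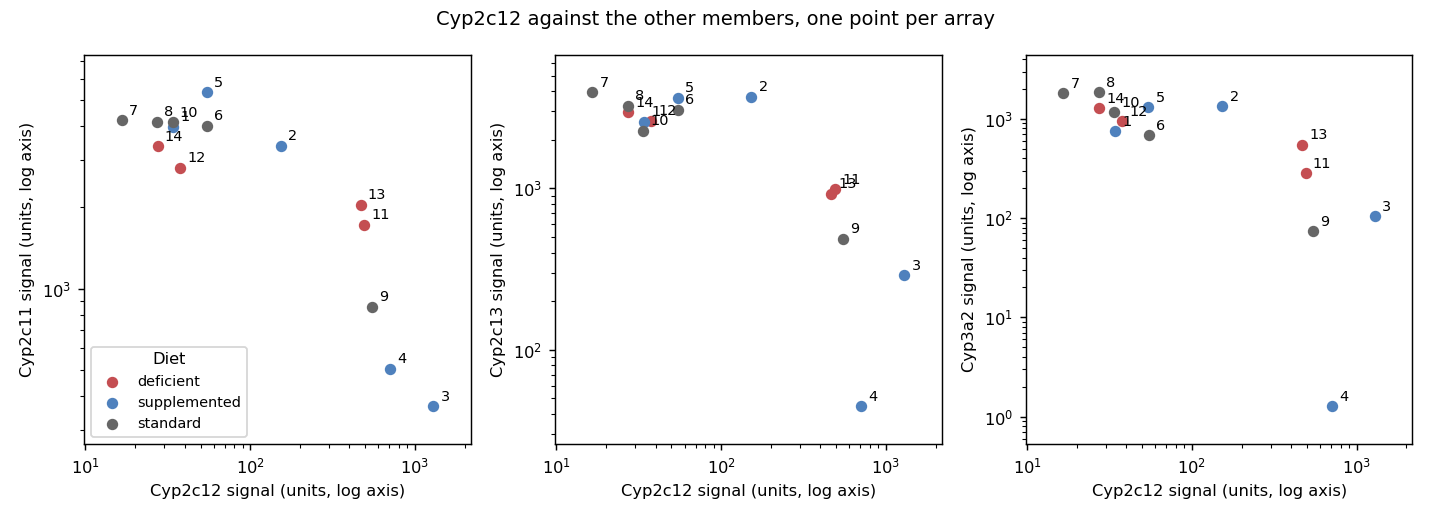
Signals of Cyp2c11, Cyp2c13 and Cyp3a2 (vertical, log axis, units) against Cyp2c12 (horizontal, log axis, units), with 1 point per array coloured by diet and numbered. Arrays 11, 13, 9, 3 and 4 lie to the right, at a Cyp2c12 signal of 467 units and above, and low on the vertical axis.

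Measures of array quality were set beside the contrast. Within diets the contrast correlated at -0.24 with the log2 ratio of the 3' to the 5' Gapdh control signal, which rises with RNA degradation, at 0.04 with the same ratio of beta-actin and at -0.015 with the log2 array median. The log2 Gapdh ratio was 1.92 and 2.68 on arrays 11 and 13, against 1.64 and 1.12 on arrays 12 and 14, and it was 1.04 on array 9, the lowest of the standard diet. In a bulk sample, fewer cells of a type and less RNA per cell cannot be told apart. Markers of the other cell types in a liver sample had no member with a likeness (the correlation with the contrast, defined below) of 0.8 or more in size. Of all genes other than the members, only 0.618% were at 0.8 or more and 0.065% at -0.8 or less. A count of 0 in lists this short therefore says little. The 6 macrophage and Kupffer cell genes ranged from -0.30 to 0.16 and the 7 endothelial and stellate cell genes from -0.22 to 0.21. The 6 pancreas and fat genes past the filter ranged from -0.16 to 0.32. None of the muscle markers looked for (Myh4, Acta1 and Ckm) passed the filter. The hepatocyte genes ranged from -0.31 to 0.40. Of the transcripts that mark the sex chromosomes, the array gave a named probe set only for Sry, which did not pass the filter.

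The diets were then compared for the members, in 1 limma model of all 14 arrays. None of the 8 member probe sets was called in any comparison at an adjusted p under 0.05, where limma called 0% of all probe sets for deficient against standard, 0% for supplemented against standard and 0.0195% for deficient against supplemented. At an unadjusted p under 0.05 the members counted 0, 0 and 1 of 8 in that order, and all probe sets 3.04%, 8.88% and 13%. Standard arrays serve in both of the first comparisons, so these are not independent of each other.

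Cyp2c12 averaged 6.95 ± 2.26 on the log2 scale on the deficient (n = 4), 7.58 ± 2.27 on the supplemented (n = 5) and 5.75 ± 1.97 on the standard diet (n = 5; SD throughout). The deficient minus standard difference was 1.20 ± 1.25 (SE), with a 95% interval from -1.47 to 3.88 (limma adjusted p = 0.999). The supplemented minus standard difference was 1.83 ± 1.18, from -0.69 to 4.35 (limma adjusted p = 0.664), and the deficient minus supplemented difference -0.63 ± 1.25, from -3.30 to 2.04 (limma adjusted p = 0.853). As each array was left out the first of these ran from 0.54 to 2.04 (the higher value without standard array 9) and the second from 1.15 (without supplemented array 3) to 2.67. The order of the means was supplemented, deficient, standard, and no neighbours in it differed beyond their spread.

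Cyp2c11 averaged 11.23 ± 0.44, 10.71 ± 1.82 and 11.56 ± 1.02 on the deficient (n = 4), supplemented (n = 5) and standard (n = 5) diets (log2, SD). Cyp2c13 averaged 10.68 ± 0.89 on the deficient, 9.74 ± 2.83 on the supplemented and 11.05 ± 1.22 on the standard diet. Cyp3a2 averaged 9.37 ± 0.95 on the deficient, 7.80 ± 3.59 on the supplemented and 9.50 ± 1.93 on the standard diet, and the supplemented SD includes the floored array 4. On these brightest probe sets the order of the means was standard, deficient, supplemented for all 3 genes, and no neighbours in it differed beyond their spread. The other Cyp2c11 probe sets gave another order: M18363cds_s_at averaged 9.05 ± 0.86 on the deficient, 9.41 ± 2.21 on the supplemented and 9.82 ± 1.30 on the standard diet, and X79081mRNA_f_at averaged 5.06 ± 2.18 on the deficient, 7.23 ± 1.93 on the supplemented and 6.56 ± 0.89 on the standard diet. The 95% intervals of Cyp2c11 ran from -1.91 to 1.25 for deficient minus standard, from -2.34 to 0.64 for supplemented minus standard and from -1.06 to 2.10 for deficient minus supplemented. For Cyp2c13 they ran from -2.74 to 1.99, from -3.54 to 0.91 and from -1.42 to 3.30, and for Cyp3a2 from -3.22 to 2.96, from -4.62 to 1.22 and from -1.52 to 4.66. Every interval held 0, and the smallest adjusted p of these 9 from limma was 0.659, for Cyp3a2 in deficient against supplemented arrays. The dim Cyp2c11 probe set was the one below an unadjusted p of 0.05, at -2.17 ± 1.00 (SE) for deficient minus supplemented (limma adjusted p = 0.373).

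**Figure D3:**
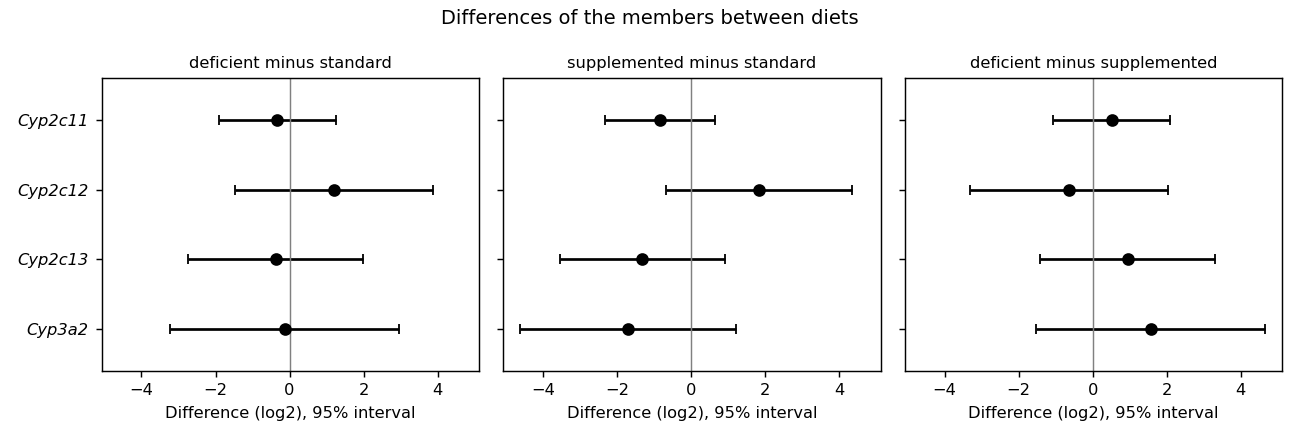
Differences between diets of the highest-mean probe set of each member, on the log2 scale, from limma; points are estimates and bars 95% intervals. All 12 bars cross 0.

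Other genes were then ranked by how closely they followed the members. Likeness is the Pearson correlation of a gene's deviations from its diet means with the member contrast, over 14 arrays, and 1 probe set stood for each gene. Of 3075 genes other than the members, 19 had a likeness of 0.8 or more (0.618%) and 2 of -0.8 or less (0.065%). The median over all genes was -0.03. Among probe sets, 39 of 5132 passed 0.8 in size (0.76%), and these included the 8 of the members, of which 4 form the contrast.

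The genes most like Cyp2c11, Cyp2c13 and Cyp3a2 were led by Hsd3b5 and Cyp2a2. Hsd3b5, a liver steroid dehydrogenase, had a likeness of 0.98. It had 179, 831, 196 and 767.5 units on the deficient arrays, 670, 363, 24.0, 17.0 and 727 units on the supplemented arrays and 381, 1046, 914, 69.8 and 1241 units on the standard arrays. The arrays high in Cyp2c12 were again the low ones of each diet. Cyp2a2, a male-predominant testosterone hydroxylase, had a likeness of 0.96 and ranged 11.5-fold over the arrays, from 149 units on supplemented array 4 to 1709 units on standard array 7. AKR1C3l1, of the aldo-keto reductase family, was at 0.93 with a 5.82-fold range.

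Sult1e1, which sulfates estrogens, was at 0.92. It had 178, 326, 342 and 1534 units on the deficient arrays, 2035, 1324, 72.4, 15.2 and 2188 units on the supplemented arrays and 1745, 1640.4, 967, 146 and 745 units on the standard arrays. On the deficient diet array 12 lay with arrays 11 and 13 for this gene, unlike for Cyp2c12. Cyp7b1, an oxysterol hydroxylase, was at 0.92 and ranged from 21.7 to 255 units. The remaining genes of the 10 closest were the cytokine gene Il5 (0.92, near the floor at 3.34 to 45.2 units), the protease inhibitor gene Spink1l (0.91), Hsd11b1, which regenerates active glucocorticoid (0.90), Akr1d1, a steroid reductase of bile acid synthesis (0.89), and Lrp2, an endocytic receptor (0.85). The other 2 Lrp2 probe sets past the filter were at -0.14 and 0.16, and the other Akr1d1 probe set at 0.59.

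On the side of Cyp2c12 only 2 genes passed -0.8. Selenow, a selenoprotein, was at -0.83 with 22.1 to 84.6 units, and the kinase gene Sik2 at -0.81 with 73.1 to 137 units. Ces2e, a carboxylesterase, was at -0.80 and had the widest range of these, 15.5-fold. It had 458, 193, 609 and 99.9 units on the deficient arrays, 73.9, 423, 592, 389.6 and 57.1 units on the supplemented arrays and 262, 303, 139, 886 and 83.2 units on the standard arrays. Supplemented array 2 was thus as high as array 4 for Ces2e, and array 2 was also the one with an intermediate Cyp2c12 signal. Fam216a (-0.77), Gak (-0.75), Pdp2 (-0.73), Bex3 (-0.73, with its other probe set at -0.16), Ubald1 (-0.73), the hydroxysteroid sulfotransferase gene Sult2a2 (-0.72) and the inositol phosphatase gene Synj2 (-0.72) followed. Fam216a and Gak ranged only 1.68-fold and 1.53-fold over all arrays.

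**Figure D4:**
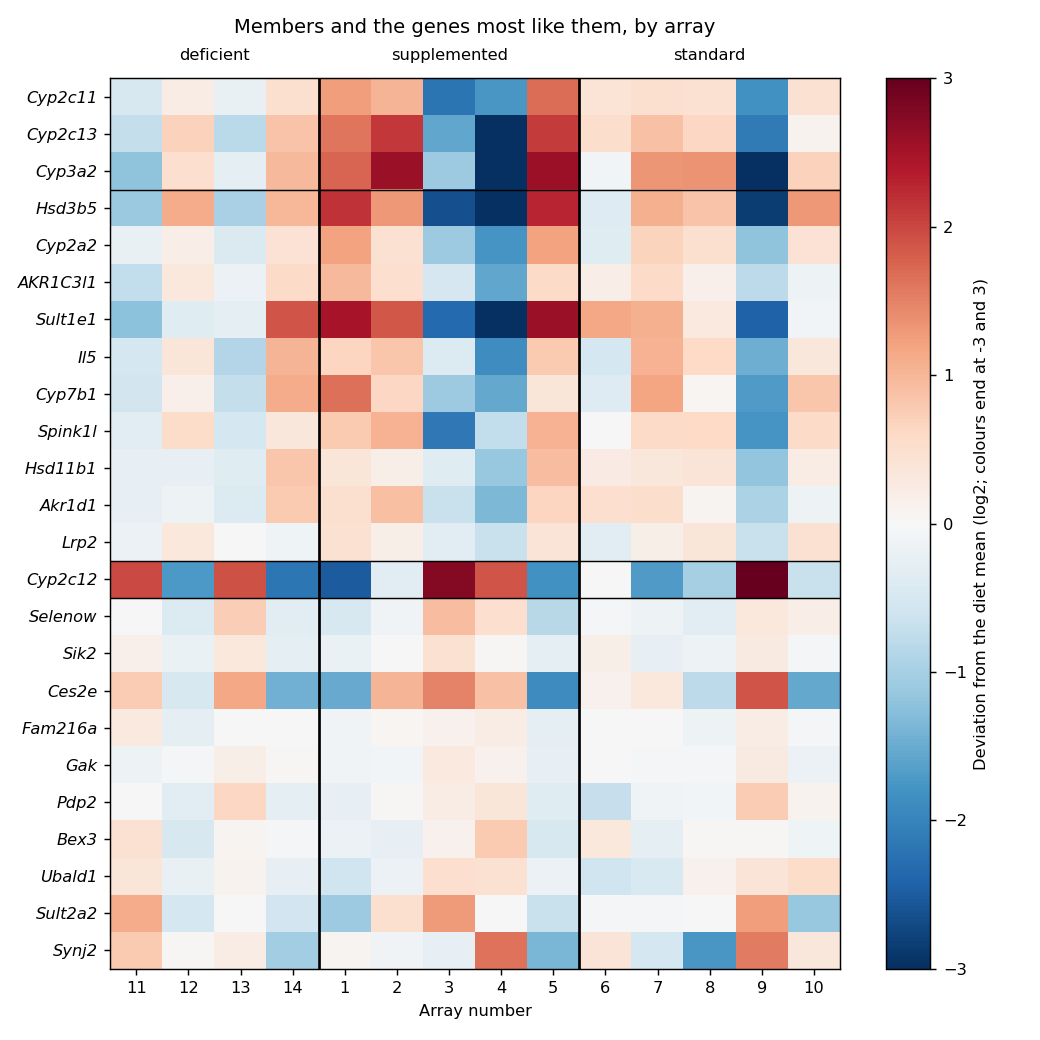
Deviation of the log2 signal from the diet mean (colour, ending at -3 and 3) for the members and the 10 genes of highest and lowest likeness, in rows, on each array, in columns by diet. Columns 11, 13, 3, 4 and 9 are blue in most upper rows and red for Cyp2c12, and the rows under Cyp2c12 are paler, apart from Ces2e, Sult2a2 and Synj2.

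Lists of genes of the same biology were set beside this. Of 9 further male-predominant liver genes matched by symbol and past the filter, 7 had a likeness of 0.8 or more, against 0.618% of all genes. All 9 were positive, with a median of 0.84. They were Hsd3b5, Cyp2a2, Sult1e1 and Hsd11b1, given above, and the receptor gene Egfr (0.84) and the urinary protein genes Obp3 (0.82) and Rup2 (0.81). Hao2, at 0.71, and Cyp3a18, at 0.68, were the other members. Car3, which the list holds as Ca3, was not matched and is not among the 9. Its likeness was 0.67. The highest array exceeded the lowest 2.56-fold for Egfr and 1.41-fold for Rup2, whereas Obp3 ranged from the floor to 1539 units.

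Of 8 further female-predominant genes, 0 reached -0.8, against 0.065% of all genes, while 7 were negative and the median was -0.51. Prlr, the prolactin receptor, was at -0.69, and its other 4 probe sets past the filter ran from -0.67 to 0.38. The sulfotransferase genes Sult2a1 and Sult2a6 were at -0.59 and -0.54, on family probe sets that may share transcripts with Sult2a2. Cyp2c7, a further member of the Cyp2c cluster, was at -0.39 and Cyp2a1 at 0.09. These 2 lists were chosen with the results known, so their counts are descriptions.

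Of 13 genes of growth hormone signalling past the filter, 0 reached a likeness of 0.8 in size, the median was -0.00044 and the range -0.27 to 0.51. Of all genes, 0.618% were at 0.8 or more and 0.065% at -0.8 or less, so 0 of 13 says little. Igf1, the main secreted target of growth hormone, was at 0.51, the transcription factor gene Stat5b at 0.38, Stat3 at 0.31 and Igfbp3 at 0.28. The other 4 Igf1 probe sets past the filter lay between 0.23 and 0.40, and the other Igfbp3 probe set was at 0.64. As each array was left out, Igf1 ran from 0.33 (without supplemented array 4) to 0.64. Under the same omissions Stat3 ran from 0.10 to 0.52 (without deficient array 14) and Igfbp3 from 0.12 to 0.39. Ghr, the growth hormone receptor, was at -0.27, and its other 2 probe sets past the filter were at -0.055 and -0.038. Stat5b had 71.6, 83.9, 65.1 and 80.5 units on the deficient arrays, 65.1, 66.2, 46.1, 52.4 and 82.9 units on the supplemented arrays and 67.7, 63.6, 59.9, 89.1 and 69.8 units on the standard arrays. Its lowest signals of the deficient and supplemented diets fell on arrays 13, 11, 3 and 4, but on the standard diet array 9 was its highest. As each array was left out its likeness ran from 0.21 to 0.83, the higher value without standard array 9. It was 0.17 without supplemented array 5, standard array 10 and deficient array 13. These signals are of RNA and say nothing of the activity of the proteins.

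Liver transcription factors and Por, the electron donor of the P450 enzymes, had 0 of 13 genes past 0.8 in size and a range of -0.55 to 0.42. Beside the 0.618% and 0.065% of all genes, this count of 0 also says little. Por was the most negative, at -0.55, and its other probe sets were at -0.60 and -0.34. Nr1h4 was at 0.42, Nr0b2 at 0.37 and Cebpa at 0.36, and leaving out each array gave 0.23 (without supplemented array 4) to 0.62, 0.27 to 0.56 (without supplemented array 1) and 0.20 to 0.48 for them in that order. The range includes Hnf4a and Onecut1, the genes of HNF4 and HNF6, at -0.01 and -0.11. The other 2 Hnf4a probe sets past the filter were at -0.37 and 0.24. The 12 acute phase genes ranged from -0.48 to 0.62. No gene of any of these lists was called by limma between diets.

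**Figure D5:**
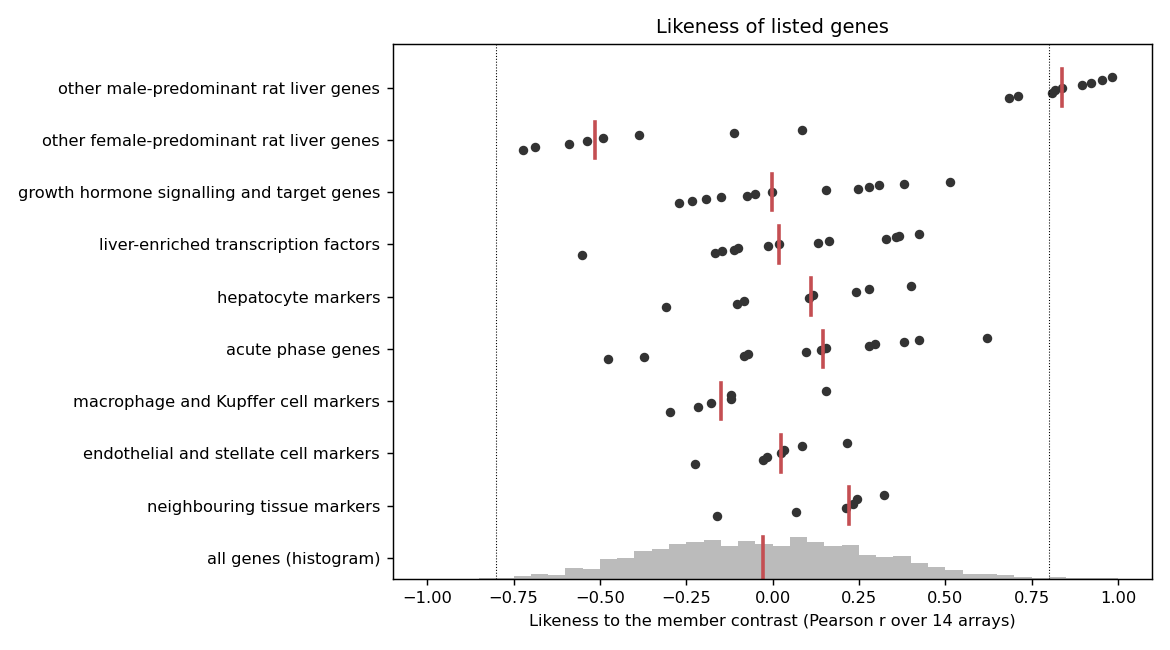
Likeness to the member contrast (horizontal, Pearson correlation over 14 arrays) of the genes of each list (points), with list medians in red and a histogram of all 3075 genes at the bottom; dotted lines mark -0.8 and 0.8. The male-predominant genes shown, which leave out Car3, lie between 0.68 and 0.98, and no other list has a gene past a dotted line. Of all genes, 0.618% lie at 0.8 or more and 0.065% at -0.8 or less.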

How the data were processed

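Total liver RNA had been hybridised to Affymetrix rat arrays. The deposited values are probe set intensities on a linear scale, from 0.0104 to 16556 units, and the mean after trimming 2% from each end was 150.3 units on every array, per the values themselves. The sources used here do not name the authors' software, detection calls or background steps. Of 8799 probe sets, 59 controls were left out. Of the other 8740, 7017 had 1 gene symbol in the platform annotation, 297 had several (never named) and 1426 none. Of the 7017 symbols, 6993 were found in the current RefSeq table.

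Array medians differed 1.91-fold, so signals were quantile normalised on the log2 scale. Signals under the pooled 20th percentile (3.93 units) were raised to it, and 5133 probe sets with a mean above the pooled 40th percentile (14.3 units) were kept. Differences between the 3 diets were fitted with limma 3.58.1 in R 4.3.3 (trended prior, Benjamini-Hochberg adjustment over all kept probe sets), which was tested on simulated data. Promoters were searched and aligned in Python 3.11.15 with Biopython 1.88. Likeness carries no p. The number of arrays limits the precision.

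The members and lists were chosen with earlier results of these data known. Named genes are the members, the 10 genes of highest and of lowest likeness and up to 4 genes per list. The 2 lists of sex-predominant genes are named more fully. Hnf4a and Onecut1, for the motifs, and Ghr, of the growth hormone list, are named in addition. All of these were added after their values were seen. Alternatives changed the scaling, floor, filter, covariates, arrays and contrast.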

Additional observations from a re-analysis of the deposited data

Results flagged for a closer look

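In each diet the lowest and highest array of every member and named gene was set against the nearest of the others, as a share of the diet's range (Dixon's criterion at 95%). Of 117 such groups, 10 held an array that stood apart. The members, and Spink1l and Hsd11b1 among the genes like them, were chosen for their variation between arrays of one diet, so their values below restate that choice and test nothing. For genes not so chosen, chance alone sets an array apart in about 1 in 20 groups. Of the 24 groups of the members, 4 held such an array, which was standard array 9 each time. It had 857.3 and 189.2 units on the 2 brighter Cyp2c11 probe sets, where the next standard array had 4018 and 1096 units. It had 487.4 and 372.8 units on the 2 Cyp2c13 probe sets, where the next had 2271 and 2095 units.

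The same array was low for Spink1l, at 578.6 units with 2011 units on the next array, and for Hsd11b1, at 767.5 units with 2022 units on the next. Deficient array 14 was high for Hsd11b1, at 3053 units with 1452 units on the next. Deficient array 12 was low for Sult2a6, at 841 units with 1809 units on the next. Standard array 7 was low for Por, at 166.8 units with 338 units on the next. Supplemented array 5, which also had the lowest mean rank correlation with the other arrays, was high for Cebpa, at 303.8 units with 149.5 units on the next. Why these arrays differ was not tested.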

How the results depend on the processing

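No member probe set was called in any of 24 alternatives for each diet comparison, 72 in all. The smallest adjusted p that limma gave for a brightest member probe set over them was 0.416, for Cyp2c12 in supplemented against standard arrays. Under the alternatives 278 member differences kept their direction and 10 turned round, all of them uncalled in both settings. Cyp3a2 in deficient minus standard arrays (log2 difference -0.13) ran from -0.96 to 0.27 as each array was left out, was 0.13 without supplemented array 5, standard array 10 and deficient array 13, and was 0.0133 with the Gapdh ratio as a covariate. The log2 Gapdh ratio ran from -0.12 to 1.12 on the supplemented arrays. On the standard arrays it ran from 1.04 to 2.65 and on the deficient arrays from 1.12 to 2.68. The ratio thus partly followed diet, and differences between diets, with or without it as a covariate, cannot be fully told apart from it. As a covariate the ratio moved other uncalled differences further. In supplemented minus standard arrays it gave 2.76 for Cyp2c12 (1.83 without it), -2.15 for Cyp2c13 (-1.32) and -2.35 for Cyp3a2 (-1.70), and in deficient minus supplemented arrays 0.86 for Cyp2c11 (0.52), -1.76 for Cyp2c12 (-0.63), 1.96 for Cyp2c13 (0.94) and 2.36 for Cyp3a2 (1.57). In deficient minus supplemented arrays, leaving out each array gave -0.035 to 0.94 for Cyp2c11, -1.30 to 0.10 for Cyp2c12 and -0.12 to 1.48 for Cyp2c13. In supplemented minus standard arrays it gave -1.30 to -0.29 for Cyp2c11, -1.85 to -0.25 for Cyp2c13 and -2.52 to -0.24 for Cyp3a2, smallest in size without supplemented array 3 for Cyp2c11 and without supplemented array 4 for the other 2 genes. The arrays whose absence turned a direction were supplemented 3 for Cyp2c11, supplemented 3 and deficient 14 for Cyp2c12 and supplemented 4 for Cyp2c13. For Cyp3a2 they were standard 7, 8 and 10 and deficient 11.

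The 39 probe sets past a likeness of 0.8 in size became 35 to 48 as each array was left out. They became 93 without supplemented array 5, standard array 10 and deficient array 13 (11 arrays in place of 14) and 24 against Cyp2c12 alone. In the 9 arrays with a contrast above 0, an alternative chosen after seeing the data, they became 13. There the deviations and the contrast were still taken from diet means over all 14 arrays, so they hold offsets between diets. The cause of these changes was not tested. Of the likenesses of named genes, 17 moved outside the 95% interval of the correlation and 851 did not. Of the 17, 13 did so in those 9 arrays, where Hsd11b1 was at 0.52, Akr1d1 at 0.41, Ces2e at -0.43 and Pdp2 at 0.067. Leaving out each array, Cyp2c12 correlated with Cyp2c11 at -0.89 to -0.82, with Cyp2c13 at -0.90 to -0.75 and with Cyp3a2 at -0.88 to -0.68. No paired analysis was possible because the array numbers run on from diet to diet and none is shared. Detection calls were not used, so dim signals such as those of Il5 have no measure of their distance from background.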
